A study of Mus musculus with 6 samples.

Results

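Oligodendrocyte lineage and myelin genes were followed through 6 RNA-seq libraries of mouse brain tissue that the labels call PFC. The 33 genes are a named list of myelin, mature oligodendrocyte, newly formed oligodendrocyte and precursor genes, out of 53640 gene symbols shared by all tables. All 33 passed the filter on low counts, which left 20694 genes for testing. By class, 25 are mature oligodendrocyte genes, 3 mark newly formed oligodendrocytes (Enpp6, Gpr17 and Bcas1), 3 are transcription factors of the whole lineage (Sox10, Olig1 and Olig2) and 2 mark precursors (Pdgfra and Cspg4). The mice were 6 months old, and each of the 3 groups held 2 libraries that the labels describe as biological duplicates. Control mice had the background written as C57BL/6 x C3H and received vehicle. Tau mice were PS19(P301S), a line with a human tau transgene carrying P301S under the prion protein promoter, and also received vehicle. Treated tau mice were PS19(P301S) that had been dosed with WDR5-0103, a WDR5-binding compound; WDR5 is a core subunit of enzymes that methylate histone H3. Dose and sex are not given in the labels used here.

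Oligodendrocytes wrap axons in myelin, a stack of membrane held together by a small set of abundant proteins and rich in galactolipids. They arise from precursor cells that carry the receptor Pdgfra and the proteoglycan Cspg4, pass through a short newly formed stage, and switch on the myelin genes under Sox10, Olig2 and Myrf. In the forebrain, myelin is dense in white matter and in the striatum and sparser in the upper cortical layers, whereas precursors are spread through grey and white matter alike.

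Counts per library totalled 17690811 to 34774643, the lowest in tau 2 and the highest in treated tau 1. Levels are given as CPM, a gene's share of the library's counts after TMM scaling. Prnp, whose promoter drives the transgene, had 1654 (control 1), 876 (control 2), 1684.5 (tau 1), 1472 (tau 2), 1876.5 (treated tau 1) and 1594 CPM (treated tau 2), so the library labelled control 1 resembled the transgenic ones, and not control 2, for this gene; it is called by its label throughout. Xist, the RNA of the inactive X chromosome, read 0.197 (control 1), 318 (control 2), 186 (tau 1), 235 (tau 2), 2.43 (treated tau 1) and 1.75 CPM (treated tau 2), so libraries of both sexes made up the control group and the tau and treated tau groups were of opposite sex by this RNA. Mapt, the tau gene under its mouse symbol, read 576 (control 1), 450.4 (control 2), 574 (tau 1), 589.7 (tau 2), 459 (treated tau 1) and 497 CPM (treated tau 2). Control 1 also held message of olfactory bulb neuron markers, the 2 tested summing to 74.4 CPM against 2.80 to 5.17 CPM in the other libraries. In bulk tissue, fewer cells of a type and less RNA per cell cannot be told apart.

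The mature genes shared their extreme libraries, and these did not follow the groups. All 25 were highest in tau 2, against 16.9% of all genes tested, and 24 of 25 were lowest in control 2, against 18.4% of all genes tested. As deviations from each gene's mean over the 6 libraries, the mature median in log2 was 0.06 in control 1, -0.68 in control 2, -0.12 in tau 1, 0.78 in tau 2, -0.04 in treated tau 1 and 0.00 in treated tau 2. Control 2 and tau 2 thus stood at opposite ends, and the other 4 libraries lay close together whichever group they belonged to. The summed level of the 25 genes was 2655 CPM in control 1 and 1458 CPM in control 2, 2306 and 4974 CPM in tau 1 and tau 2, and 2458 and 2650 CPM in treated tau 1 and 2. These genes took up between 0.148% of the counts in control 2 and 0.492% in tau 2.

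**Figure D1:**
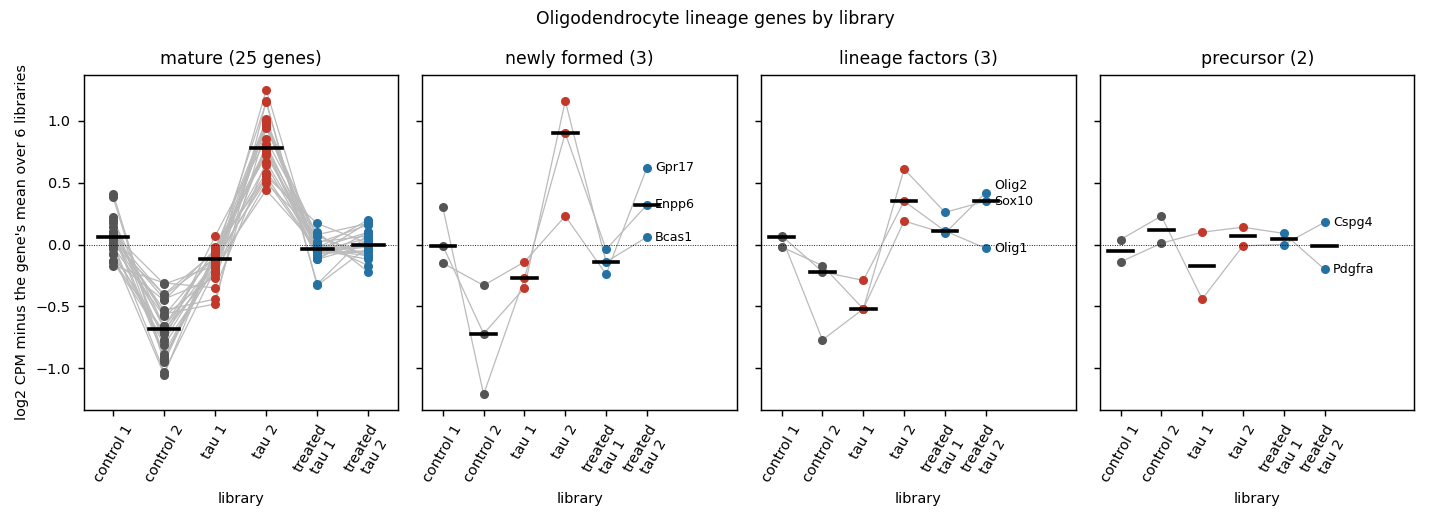
Each point is 1 gene in 1 library, on the y axis as log2 CPM minus that gene's mean over the 6 libraries, in 4 panels by class; grey lines join a gene and black bars are class medians. The mature median runs from -0.68 in control 2 to 0.78 in tau 2, while the precursor medians stay between -0.17 and 0.12.

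Mature genes differed widely between libraries of 1 group. For the 25 mature genes the ratio of tau 2 to tau 1 ranged from 1.5 (Gpr37) to 3.14 (Trf) with a median of 1.85, and the ratio of control 1 to control 2 from 1.1 (Cryab) to 2.56 (Opalin) with a median of 1.58. The treated tau libraries differed least, with a median ratio of 0.968 (0.753 to 1.26). The highest library exceeded the lowest by 1.69 times for Car2 and by 4.87 times for Mobp, with a median of 2.93 times.

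Among the proteins of compact myelin, Mbp, which binds the cytoplasmic membrane faces together, was the most abundant member per length, at a mean of 128 CPM per kb of merged exons. Its levels were 1066 CPM in control 1 and 536.5 in control 2, 903 and 2003 CPM in tau 1 and tau 2, and 975 and 1042 CPM in treated tau 1 and 2. Mobp, a small basic protein of the major dense line (chromosome 9, 120149707 to 120181484), followed at 71.5 CPM per kb and had 439 (control 1), 213 (control 2), 379 (tau 1), 1039 (tau 2), 401 (treated tau 1) and 467 CPM (treated tau 2). Tau 2 alone lay above all other libraries for both genes, and tau 1 lay below control 1. Mal, a raft-associated membrane protein of myelin (chromosome 2, 127633226 to 127656695), had 123 CPM in control 1 and 63.1 in control 2, 127 and 261 CPM in tau 1 and tau 2, and 131 and 146 CPM in treated tau 1 and 2. Both tau libraries were above both controls for Mal, though tau 1 and control 1 were close. Cldn11, the tight junction protein that seals myelin layers (chromosome 3, 31149920 to 31164324), had 60.7 (control 1), 40.2 (control 2), 59.0 (tau 1), 129 (tau 2), 64.8 (treated tau 1) and 71.1 CPM (treated tau 2). Tau 1 fell between the control libraries for Cldn11.

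Cnp, an enzyme and scaffold that keeps cytoplasmic channels open within myelin, had 192 (control 1), 99.5 (control 2), 159 (tau 1), 293 (tau 2), 159 (treated tau 1) and 175 CPM (treated tau 2). Tspan2, a tetraspanin of oligodendrocytes, had 70.4 (control 1), 45.5 (control 2), 73.5 (tau 1), 122 (tau 2), 75.2 (treated tau 1) and 78.0 CPM (treated tau 2), with both tau and both treated tau libraries above both controls. Ermn, a cytoskeletal protein of the outer myelin layers, had 55.2 (control 1), 32.2 (control 2), 49.3 (tau 1), 110.1 (tau 2), 53.4 (treated tau 1) and 64.0 CPM (treated tau 2). Tau 1 was below control 1 for both Cnp and Ermn. Opalin, a membrane glycoprotein of central myelin, was among the less abundant mature genes and had 13.2 (control 1), 5.17 (control 2), 9.50 (tau 1), 16.6 (tau 2), 9.62 (treated tau 1) and 9.13 CPM (treated tau 2). Control 1 exceeded tau 1 and both treated tau libraries for Opalin. Hapln2, a link protein of the matrix at nodes of Ranvier, had 9.00 (control 1), 5.92 (control 2), 6.34 (tau 1), 16.6 (tau 2), 9.03 (treated tau 1) and 8.02 CPM (treated tau 2), and its control and tau libraries overlapped.

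The adhesion and surface proteins had the same extremes, control 2 and tau 2. Mag, which contacts the axon from the innermost myelin wrap, had 83.8 (control 1), 42.5 (control 2), 71.9 (tau 1), 157 (tau 2), 74.4 (treated tau 1) and 75.5 CPM (treated tau 2). Mog, an immunoglobulin-family protein of the outermost layer, had 32.5 (control 1), 14.8 (control 2), 26.2 (tau 1), 62.0 (tau 2), 22.1 (treated tau 1) and 27.7 CPM (treated tau 2). Mog was lower in both treated tau libraries than in control 1, and it spanned 4.19 times between control 2 and tau 2.

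Among enzymes and transport proteins the span between control 2 and tau 2 ran from 1.69 times for Car2 to 3.32 times for Trf. Car2, a carbonic anhydrase, had 156 CPM in control 1 and 116.9 in control 2, 130.4 and 198 CPM in tau 1 and tau 2, and 145 and 144 CPM in treated tau 1 and 2, and Qdpr, which regenerates tetrahydrobiopterin, spanned 1.91 times between its lowest and highest library. Aspa, which releases acetate for lipid synthesis, had 21.2 (control 1), 11.96 (control 2), 16.5 (tau 1), 27.2 (tau 2), 20.3 (treated tau 1) and 21.6 CPM (treated tau 2). Ugt8a, which makes the galactolipids of myelin, had 61.2 (control 1), 41.7 (control 2), 52.7 (tau 1), 122 (tau 2), 59.4 (treated tau 1) and 59.6 CPM (treated tau 2). Fa2h, the hydroxylase that acts on the same lipids, had 5.80 (control 1), 3.72 (control 2), 6.69 (tau 1), 11.6 (tau 2), 6.72 (treated tau 1) and 6.00 CPM (treated tau 2), with both tau libraries above both controls. Trf, the iron carrier transferrin, had 11.4 (control 1), 7.17 (control 2), 7.59 (tau 1), 23.8 (tau 2), 8.51 (treated tau 1) and 11.3 CPM (treated tau 2). The Trf values are uncertain, since 59.4% of its 50-base stretches also occur in transcripts of other annotated genes, among them Gm20425, which overlaps it on the same strand.

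Of the connexins that couple oligodendrocytes to astrocytes and myelin layers to each other, Gjb1 had 7.14 (control 1), 5.10 (control 2), 5.75 (tau 1), 12.2 (tau 2), 6.75 (treated tau 1) and 6.53 CPM (treated tau 2) and Gjc3 had 28.2 (control 1), 17.8 (control 2), 24.8 (tau 1), 41.3 (tau 2), 25.5 (treated tau 1) and 26.3 CPM (treated tau 2). Both had their lowest level in control 2, and tau 1 lay below control 1. Cryab, a small heat shock protein of oligodendrocytes, had 31.1 (control 1), 28.1 (control 2), 27.5 (tau 1), 55.8 (tau 2), 34.2 (treated tau 1) and 40.2 CPM (treated tau 2) and was the only mature gene whose lowest library was tau 1. Ndrg1, a cytoplasmic protein, had 41.2 (control 1), 32.9 (control 2), 43.9 (tau 1), 77.4 (tau 2), 45.8 (treated tau 1) and 40.0 CPM (treated tau 2), with both tau libraries above both controls. Gpr37, a receptor of differentiating oligodendrocytes, and Ppp1r14a, a phosphatase inhibitor, spanned 2.31 and 3.33 times between control 2 and tau 2.

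The 2 transcription factors placed in the mature class were rare and had the same extreme libraries. Myrf, which drives myelin gene transcription, had 10.8 (control 1), 8.15 (control 2), 10.4 (tau 1), 16.1 (tau 2), 11.6 (treated tau 1) and 9.21 CPM (treated tau 2). Nkx6-2, a homeodomain factor of myelinating cells, had 4.07 (control 1), 2.43 (control 2), 3.52 (tau 1), 5.73 (tau 2), 4.38 (treated tau 1) and 3.92 CPM (treated tau 2) and the lowest count of any member, 62 in control 2. The control and tau libraries overlapped for both genes.

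**Figure D2:**
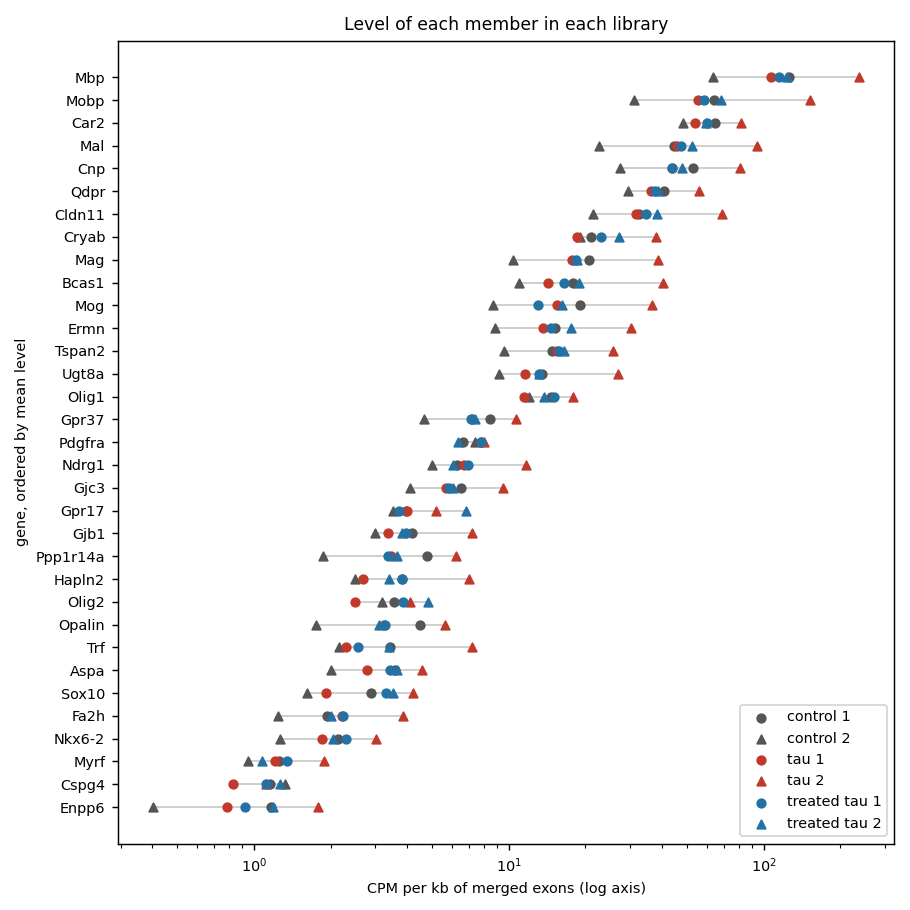
Each row is 1 of the 33 genes and each point 1 library, on a log axis of CPM per kb of merged exons; circles are replicate 1, triangles replicate 2, and colour is the group. Tau 2 (red triangle) is the highest point in 30 rows and control 2 (grey triangle) the lowest in 28.

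Because the mature genes varied together, the sequence upstream of their starts was searched for short motifs of factors known to act in this lineage. RefSeq windows (GRCm38.p6) of 250 bases before the start were matched for 18 of the 25 mature genes, in 24 windows. The motifs were ACAAAG and ACAAT (SOX family cores), CTGGNAC (MYRF) and CAGCTG and CAGATG (E-boxes, bound by basic helix-loop-helix factors), on both strands. ACAAAG was in 33.3% of the mature windows and 16.5% of all 32841 windows, ACAAT in 25% and 27.7%, CTGGNAC in 33.3% and 16.1%, CAGCTG in 8.33% and 13%, and CAGATG in 29.2% and 14.4%. Windows of 1 gene can overlap, so their shares are descriptions, and a match is not a bound site. Stretches of 4 mature genes are given from the windows before their RefSeq starts, without bases that lie in annotated exons, 5′ to 3′ on the gene's strand and with motif matches in capitals. For Aspa this start lies inside the annotated gene, downstream of the gene's annotated start. The 4 genes were taken for the most matches in 1 window. Mobp had 6, Aspa and Hapln2 5 each and Cnp 3. Gjb1, Mag and Ppp1r14a also had 3, and Cnp was taken by alphabetical order. The MYRF motif was in windows of 6 mature genes, Cnp and Hapln2 among them. The Aspa and Hapln2 windows each hold 3 of the 5 motifs. The Hapln2 stretch leaves out 72 bases before the start and shows 2 of the 5 matches of its window; adjoining capitals in Aspa are overlapping ACAAT matches on opposite strands.
Mobp (chr9:120149492-120149706, plus strand): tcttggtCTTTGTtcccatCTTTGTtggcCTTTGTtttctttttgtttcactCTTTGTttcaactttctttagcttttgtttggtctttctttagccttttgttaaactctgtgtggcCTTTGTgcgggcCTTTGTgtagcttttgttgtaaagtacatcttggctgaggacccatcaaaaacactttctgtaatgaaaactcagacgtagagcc
Aspa (chr11:73324638-73324887, minus strand): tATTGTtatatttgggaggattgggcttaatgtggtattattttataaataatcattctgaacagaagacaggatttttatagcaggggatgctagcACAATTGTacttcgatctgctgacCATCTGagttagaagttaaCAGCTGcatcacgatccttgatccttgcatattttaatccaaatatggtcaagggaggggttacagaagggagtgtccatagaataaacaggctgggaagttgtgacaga
Hapln2 (chr3:88027584-88027761, minus strand): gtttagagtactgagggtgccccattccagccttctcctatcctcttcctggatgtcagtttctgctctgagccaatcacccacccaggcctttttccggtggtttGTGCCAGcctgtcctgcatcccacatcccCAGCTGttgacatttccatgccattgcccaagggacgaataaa
Cnp (chr11:100574689-100574903, plus strand): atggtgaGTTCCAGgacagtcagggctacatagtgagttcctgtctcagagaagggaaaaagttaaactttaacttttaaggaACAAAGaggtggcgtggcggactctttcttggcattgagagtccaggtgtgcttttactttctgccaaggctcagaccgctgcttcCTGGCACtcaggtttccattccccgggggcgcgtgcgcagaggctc

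All 6 matches in the Mobp stretch were CTTTGT, the reverse complement of ACAAAG, the first starting 243 bases and the last 120 bases before the RefSeq start. Cnp held CTGGNAC on both strands, at 243 and 81 bases before the start. Cldn11, Mal, Ugt8a and Nkx6-2 held none of the 5 motifs in their windows, and their levels spanned 3.2, 4.13, 2.93 and 2.36 times between the lowest and the highest library.

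The newly formed oligodendrocyte genes split. Bcas1, found in early myelinating cells and in myelin, had 67.6 CPM in control 1 and 41.4 in control 2, 53.7 and 152 CPM in tau 1 and tau 2, and 61.9 and 71.1 CPM in treated tau 1 and 2, in the same order as Mbp at the extremes. Enpp6, a choline phosphodiesterase of newly formed oligodendrocytes, had 7.499 (control 1), 2.59 (control 2), 5.04 (tau 1), 11.5 (tau 2), 5.93 (treated tau 1) and 7.64 CPM (treated tau 2) and the second widest range of all members, 4.43 times. Gpr17, a receptor present in cells committed to differentiate and lost from mature ones, had 20.5 (control 1), 18.2 (control 2), 20.8 (tau 1), 26.9 (tau 2), 19.3 (treated tau 1) and 35.2 CPM (treated tau 2). Gpr17 therefore peaked in treated tau 2 and not in tau 2, and spanned 1.93 times, less than Bcas1 (3.67).

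The lineage factors spanned 1.56 times (Olig1) to 2.62 times (Sox10), under the mature median of 2.93 times. Sox10, which acts from precursor to mature cell (chromosome 15, 79154908 to 79165240), had 8.76 (control 1), 4.90 (control 2), 5.83 (tau 1), 12.8 (tau 2), 10.03 (treated tau 1) and 10.7 CPM (treated tau 2). Olig1 had 31.7 (control 1), 26.0 (control 2), 24.8 (tau 1), 38.6 (tau 2), 32.7 (treated tau 1) and 29.8 CPM (treated tau 2), and Olig2, which specifies the lineage (chromosome 16, 91225457 to 91228677), had 8.96 (control 1), 8.07 (control 2), 6.34 (tau 1), 10.4 (tau 2), 9.70 (treated tau 1) and 12.2 CPM (treated tau 2). Olig1 and Olig2 were lowest in tau 1 and not in control 2, and Olig2 peaked in treated tau 2. Both treated tau libraries lay above both controls for Sox10 and Olig2.

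The precursor genes did not follow the mature genes. Pdgfra, the receptor for platelet-derived growth factor that precursors need to divide (chromosome 5, 75152292 to 75198215), had 66.3 CPM in control 1 and 73.6 in control 2, 78.2 and 80.5 CPM in tau 1 and tau 2, and 77.7 and 63.5 CPM in treated tau 1 and 2. The whole span was 1.27 times, the smallest of the 33. Cspg4, the NG2 proteoglycan (chromosome 9, 56865033 to 56899870), had 13.8 (control 1), 15.7 (control 2), 9.86 (tau 1), 13.3 (tau 2), 13.4 (treated tau 1) and 15.2 CPM (treated tau 2), and was highest in control 2, the library with the least mature message. Both genes are also made by vascular cells, Cspg4 by pericytes and Pdgfra by fibroblasts.

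Set side by side by library, the difference between the mean deviation of mature and of precursor members was 0.106 in log2 in control 1, -0.801 in control 2, 0.019 in tau 1, 0.743 in tau 2, -0.087 in treated tau 1 and 0.019 in treated tau 2. The pooled SD within groups was 0.476. The mature-to-precursor balance therefore differed by more between the 2 controls, and between the 2 tau libraries, than between the treated tau libraries. With the 11 other precursor genes added to Pdgfra and Cspg4, the values were -0.091, -0.722, -0.024, 0.801, -0.024 and 0.060 in the same order. Only control 2 and tau 2 stood away from 0 under either choice of precursor genes.

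Transgene effects were addressed by setting the tau mice against the controls. All 25 mature genes had positive log2 fold changes (median 0.62, range 0.26 to 1.12), where 49.4% of all genes tested were positive, 50.5% were negative and the median of all genes was 0.00. The group means of Mal were 93.2 ± 42.6 in control and 194 ± 94.8 CPM in tau (mean ± SD over n = 2 mice), Mobp 326 ± 160 and 709 ± 466 CPM and Mbp 801 ± 375 and 1453 ± 778 CPM. The SDs in tau were close to the size of the differences. The 3 newly formed genes were positive (0.29 to 0.90), Olig2 had -0.07, and the precursors went opposite ways, with 0.18 ± 0.11 (SE) for Pdgfra and -0.37 ± 0.17 for Cspg4.

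No member passed in the edgeR quasi-likelihood test, in which 0% of all genes tested passed at an adjusted p under 0.05. The smallest adjusted p among the members was 0.441, shared by Mal (1.05 ± 0.33), Fa2h (0.89 ± 0.30), Tspan2 (0.75 ± 0.24) and Ndrg1 (0.70 ± 0.23), and it was 0.452 for Mobp (1.12 ± 0.42) and 0.479 for Mbp (0.86 ± 0.35). At an unadjusted p under 0.05, 11 members were higher and 0 lower, where 4.31% of all genes tested were higher and 5.64% lower at that level. DESeq2 put 3 members under an unadjusted p of 0.05 and limma-voom 6, and neither called any after adjustment. Both tau libraries lay above both controls for 6 of 33 members (Mal, Fa2h, Tspan2, Ndrg1, Gpr17 and Pdgfra), against 20.3% of all genes tested, and below both for 1, Cspg4, against 21.3%. Those counts are 6 and 1 of 33, no larger as shares than among all genes.

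Without tau 2 the mature median was 0.12 (19 of 25 positive) and without control 2 it was 0.39 (23 of 25); without tau 1 it was 1.07, and without control 1, which leaves libraries of 1 sex by Xist, it was 1.06 (25 of 25 positive in both). With control 2 and tau 2 both left out the median was -0.22, with 4 of 25 positive. The fits without control 2 leave control 1 as the only control, and its Prnp level resembled the transgenic libraries. With control 1 and tau 2 both left out the mature median was 0.56, with 24 of 25 positive. That last fit compares 1 tau library with 1 control and takes its spread from the treated tau pair alone, which differed less than either other pair.

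**Figure D3:**
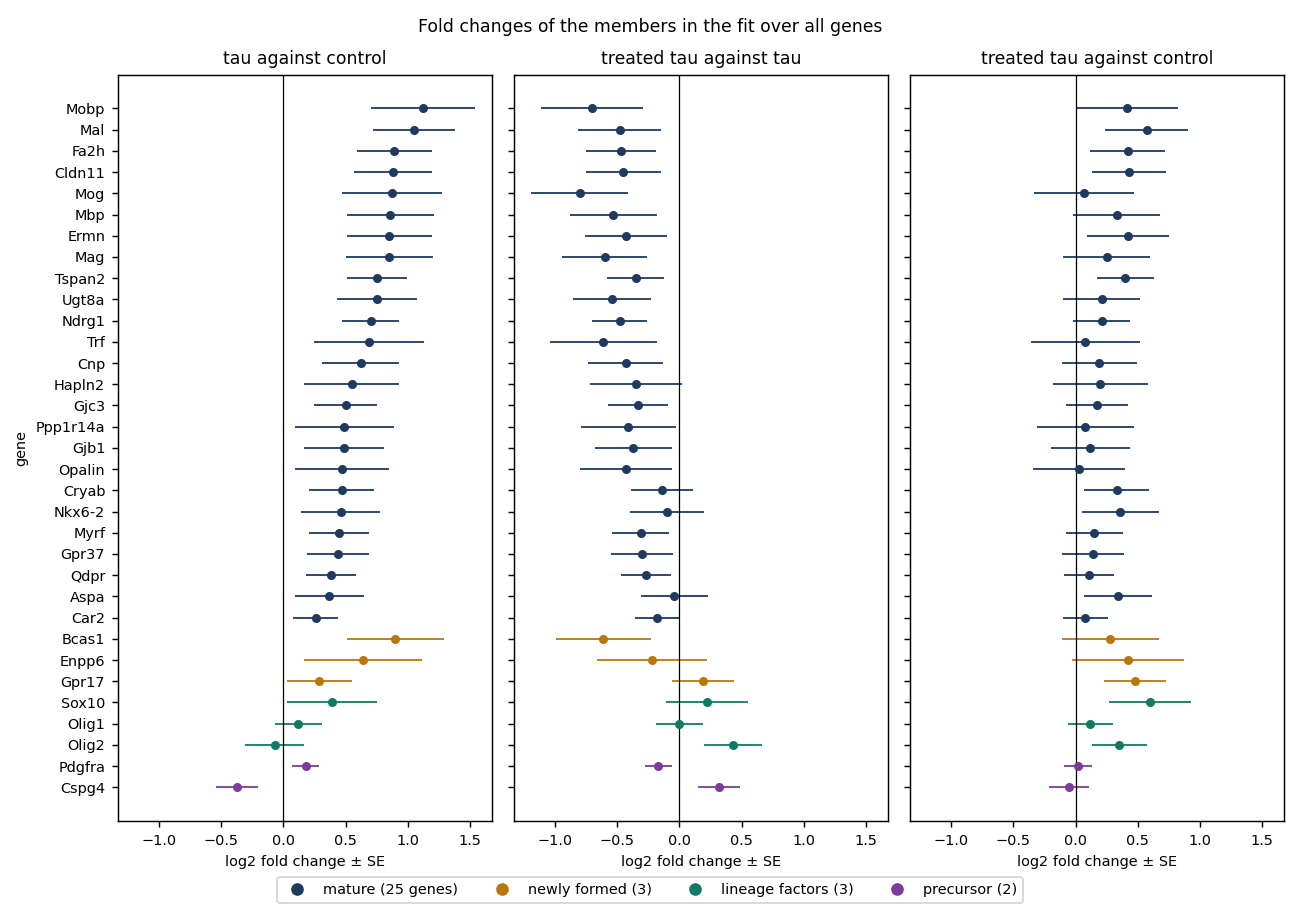
Points are log2 fold changes of the 33 genes in the fit over all genes, with bars of 1 SE, in 1 panel per comparison; colour is the class. All 25 mature genes are right of 0 for tau against control and left of 0 for treated tau against tau, and no gene passed an adjusted p of 0.05 in any panel.

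The effect of WDR5-0103 was addressed by setting treated against vehicle tau mice. All 25 mature genes had negative log2 fold changes (median -0.43, range -0.80 to -0.04), where 51.3% of all genes tested were negative and 48.7% positive. The group means of Mog were 44.1 ± 25.3 in tau and 24.9 ± 3.9 CPM in treated tau (mean ± SD over n = 2 mice), Mobp 709 ± 466 and 434 ± 46.6 CPM, and Aspa had the value nearest 0, at -0.04 ± 0.27 (SE). Sox10 (0.22 ± 0.33), Olig2 (0.43 ± 0.23), Gpr17 (0.19 ± 0.25) and Cspg4 (0.32 ± 0.17) had positive values. The tau libraries are shared with the comparison above.

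No member passed in the edgeR test, in which 3.76% of all genes tested passed (3.09% higher, 0.677% lower). The smallest adjusted p among the members was 0.441 for Ndrg1 (-0.48 ± 0.22), followed by 0.485 for Mog (-0.80 ± 0.39). No member reached an unadjusted p under 0.05, where 7.52% of all genes were higher and 4.44% lower at that level. For 0 of the 25 mature genes did the 2 groups separate; treated tau lay below tau in both libraries for Pdgfra alone, against 20.1% of all genes tested, and above for Cspg4 alone, against 21.2%. For Mbp and Mobp both treated tau libraries fell between tau 1 and tau 2. DESeq2 and limma-voom also put 0 members under an unadjusted p of 0.05.

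Without tau 2 the mature median was 0.13, with 21 of 25 positive, and without tau 1 it was -0.85. In the fit without tau 1, which sets treated tau against tau 2 alone, Ugt8a had -1.04, Ndrg1 -0.85 and Bcas1 -1.2. With tau 2 and control 1 both left out Sox10 had 0.83. With tau 2 and control 2 left out Sox10 had 0.83 and Olig2 had 0.79. Both fits hold tau 1 alone for tau. Sex by Xist and treatment cannot be told apart in this comparison.

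**Figure D4:**
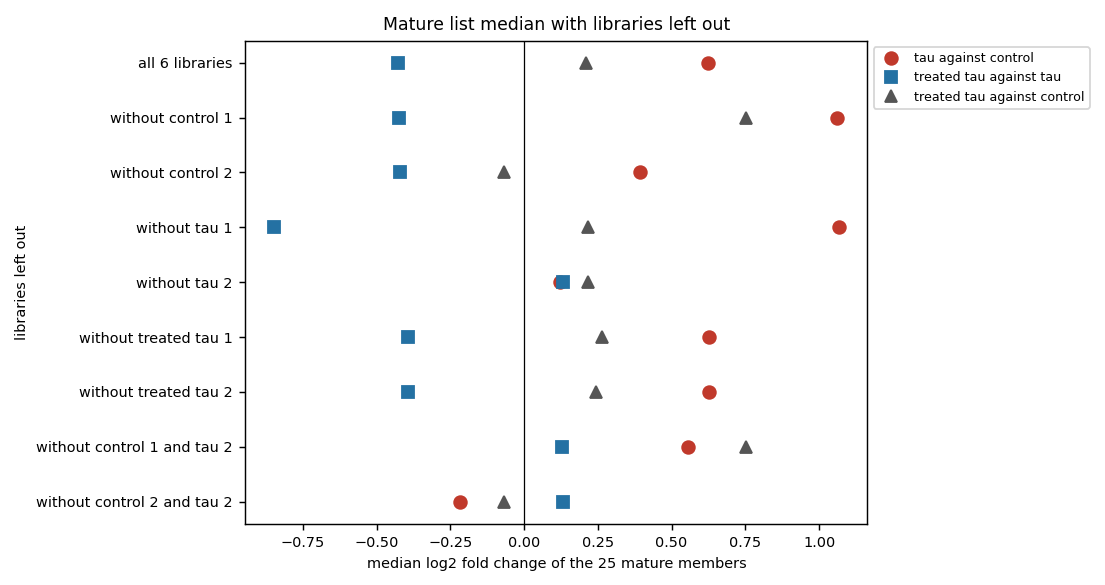
Each row is a set of libraries left out and each symbol the median log2 fold change of the 25 mature genes in 1 comparison after refitting. The median for treated tau against tau moves from -0.43 with all libraries to 0.13 without tau 2, and that for tau against control from 0.62 to 0.12.

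Treated tau was also compared with control, with which it shares neither genotype nor treatment. All 25 mature genes were positive, with a smaller median of 0.21 (range 0.03 to 0.57), where 48.8% of all genes tested were positive and 51.2% negative. The largest values among the members were those of Sox10 (0.60 ± 0.33, SE), Mal (0.57 ± 0.33) and Gpr17 (0.48 ± 0.25). The group means of Sox10 were 6.83 ± 2.73 in control and 10.4 ± 0.504 CPM in treated tau (mean ± SD over n = 2 mice), and the precursors Pdgfra (0.02 ± 0.11) and Cspg4 (-0.05 ± 0.16) had values near 0.

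No member passed in the edgeR test, in which 4.22% of all genes tested passed (3.32% higher, 0.899% lower). DESeq2 put 1 member under an unadjusted p of 0.05 and limma-voom 0, and neither called any after adjustment. The smallest adjusted p was 0.387 for Gpr17, with 0.425 for Sox10 and 0.449 for Mal and Tspan2, and no member reached an unadjusted p under 0.05, where 8.17% of all genes were higher and 8.09% lower at that level. Both treated tau libraries lay above both controls for 7 members (Mal, Cldn11, Fa2h, Tspan2, Cryab, Sox10 and Olig2), against 23% of all genes tested, and below for 0, against 23.3%. Without control 1 the mature median was 0.75 and without control 2, which leaves libraries of 1 sex by Xist, it was -0.07 with 8 of 25 positive. The fit without control 2 rests on control 1, whose Prnp level resembled the transgenic libraries and which held olfactory bulb message. Gpr17 had 0.87 when treated tau 1 was left out, a fit with treated tau 2 alone in its group. With control 1 and tau 2 both left out the mature median was 0.753, with 25 of 25 positive, in a fit that sets the treated tau pair against control 2 alone.

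Further genes of the lineage were summarised by the same classes. Of 39 other mature oligodendrocyte genes 38 were positive for tau against control (median 0.36), 36 negative for treated tau against tau (median -0.28) and 28 positive for treated tau against control (median 0.13), and none was called in any of the 3. The smallest p for tau against control in this list belonged to Tmem125 (0.90 ± 0.27, SE) and Anln (1.18 ± 0.40), with adjusted p of 0.441 and 0.445. Tau 2 was the highest library for 36 of the 39 and control 2 the lowest for 30. The span between lowest and highest library ran from 1.19 times (Tppp) to 8.77 times (Klk6) in this list. The Klk6 span rests on 4 counts in control 2 and 24 in tau 2.

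Of 11 other precursor genes, 8 were negative for tau against control (median -0.14), 6 for treated tau against tau (median -0.04) and 8 for treated tau against control (median -0.17), and none was called. Matn4, a matrix protein, had 8.80 (control 1), 7.06 (control 2), 3.68 (tau 1), 5.16 (tau 2), 6.14 (treated tau 1) and 4.81 CPM (treated tau 2), a log2 fold change of -0.88 ± 0.24 (SE) for tau against control (adjusted p = 0.441). Tnr, a matrix glycoprotein that interneurons make as well, had 260.3 (control 1), 291 (control 2), 218 (tau 1), 220.3 (tau 2), 245.5 (treated tau 1) and 309 CPM (treated tau 2) and -0.33 ± 0.11 (adjusted p = 0.441). Both tau libraries lay below both controls for Matn4 and Tnr. Tau 2 and control 2 were the highest and the lowest library for 1 of these 11 genes, against 28 of the 39 other mature genes and 4.37% of all genes tested.

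Of 10 other genes of newly formed or differentiating cells, 9 passed the filter, 7 of them positive for tau against control (median 0.27), 8 negative for treated tau against tau (median -0.41) and 5 negative for treated tau against control (median -0.16), with 0 called. Sox8, a factor related to Sox10, had 31.2 (control 1), 29.7 (control 2), 38.3 (tau 1), 45.0 (tau 2), 28.5 (treated tau 1) and 32.9 CPM (treated tau 2), so that both tau libraries were above the other 4. Its log2 fold change was 0.45 ± 0.12 (SE) for tau against control (adjusted p = 0.441) and -0.44 ± 0.12 for treated tau against tau (adjusted p = 0.0984). Cd82, a tetraspanin, had 13.7 (control 1), 8.59 (control 2), 11.7 (tau 1), 16.8 (tau 2), 8.10 (treated tau 1) and 9.06 CPM (treated tau 2) and -0.71 ± 0.24 for treated tau against tau (adjusted p = 0.218).

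Markers of other cells moved with the mature genes in tau 2. The 11 tested markers of striatal projection neurons, of 12 listed, had a median deviation of 1.08 in log2 in tau 2 and 0.13 in tau 1, against -0.20 and -0.36 in the controls and -0.36 and -0.45 in treated tau, and their summed level was 408 CPM in tau 2 against 185 to 245 CPM elsewhere. Pde10a, a phosphodiesterase abundant in striatal neurons, had 79.4 (control 1), 79.9 (control 2), 93.9 (tau 1), 144 (tau 2), 70.7 (treated tau 1) and 105 CPM (treated tau 2), and Ppp1r1b, their dopamine-regulated phosphatase inhibitor, had 29.0 (control 1), 24.8 (control 2), 33.4 (tau 1), 55.0 (tau 2), 34.3 (treated tau 1) and 22.6 CPM (treated tau 2). Of the 11, Drd2 (-1.84, adjusted p = 0.0308), Gpr6 (-2.20, adjusted p = 0.0315) and Rgs9 (-1.18, adjusted p = 0.0469) fell in treated tau against tau in the edgeR test. Six3, a striatal factor under the filter, had 12 counts in tau 2, 2 in control 2 and 0 in the other 4. In control 2, the other extreme for myelin genes, the striatal median was within the range of the treated tau libraries. The part of striatal tissue in the tau 2 values was not tested.

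**Figure D5:**
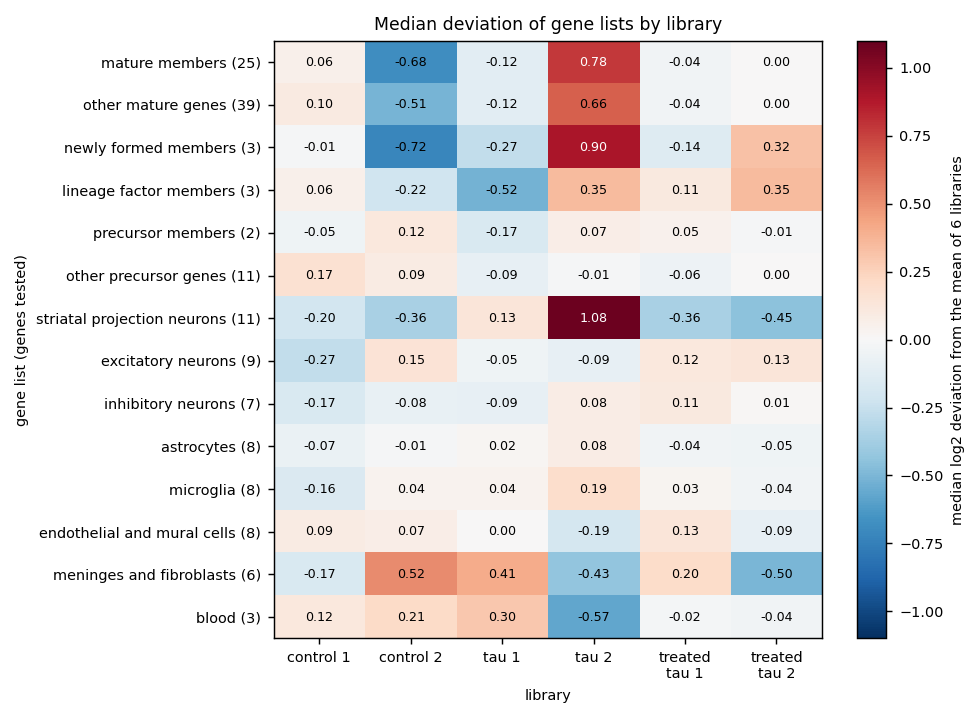
Each cell is the median log2 deviation of a gene list (rows, with the number tested) from the mean of the 6 libraries, per library (columns). Mature genes and striatal markers are both highest in tau 2 (0.78 and 1.08), and the median of the astrocyte markers stays between -0.07 and 0.08.

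For most other cell types the list medians spanned less than that of the mature genes. Median deviations lay between -0.07 and 0.08 for 8 astrocyte markers, -0.27 and 0.15 for 9 excitatory neuron markers, -0.17 and 0.11 for 7 inhibitory neuron markers, -0.16 and 0.19 for 8 microglial markers, -0.19 and 0.13 for 8 endothelial and mural markers and -0.35 and 0.31 for 5 of 6 choroid plexus markers. Single markers could depart from these medians. Gfap, of the astrocyte list, had 60.1 (control 1), 49.55 (control 2), 66.05 (tau 1), 112 (tau 2), 56.6 (treated tau 1) and 62.9 CPM (treated tau 2). It was the only 1 of the 8 with tau 2 highest and control 2 lowest, and it was not called. Aqp1, of the choroid plexus list, had 9.945 CPM in control 1 and 0.149 to 0.789 CPM elsewhere. Within the endothelial list Cldn5, a tight junction protein of brain vessels, had 26.1 (control 1), 18.6 (control 2), 12.5 (tau 1), 10.3 (tau 2), 20.02 (treated tau 1) and 22.7 CPM (treated tau 2) and was called higher in treated tau against tau (0.88 ± 0.19, SE; adjusted p = 0.0286, edgeR). Meningeal and fibroblast markers were lowest in treated tau 2 (-0.50) and tau 2 (-0.43) and highest in control 2 (0.52), and blood markers were lowest in tau 2 (-0.57). Pmp2, a marker of the Schwann cells that make peripheral myelin, had 0 counts in every library. Slc17a7, the vesicular glutamate transporter of cortical excitatory neurons, had 933 (control 1), 973 (control 2), 920.3 (tau 1), 891 (tau 2), 1005 (treated tau 1) and 992.5 CPM (treated tau 2).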

How the data were processed

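Stranded total RNA libraries depleted of ribosomal RNA were sequenced, per the labels' protocols, from 2 mice in each of 3 groups. The authors deposited 1 table of raw read counts per gene symbol for each library. The submitters' processing notes list TopHat2, SAMtools, featureCounts and edgeR and the build mm10. No label or header states the strand setting or how reads with several positions were counted.

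The 53640 symbols present in all 6 tables were kept, and they held all but 0.333% to 0.352% of the counts of a library. Library totals of 17690811 to 34774643 put the members' counts between 62 and 34955. Counting error was small beside the span between the lowest and highest library. It was not small beside the difference within the treated tau pair for low members, such as Gjb1 (231 and 175 counts, a CPM ratio of 1.03). Genes were filtered with a minimum count of 10 (filterByExpr), scaled by TMM and fitted together over 6 libraries with edgeR 4.0.16 in R 4.3.3, with 3 residual degrees of freedom. Each comparison used the quasi-likelihood test, with Benjamini-Hochberg adjustment over 20694 genes and a threshold of 0.05, and each SE was the log2 fold change over the root of its F statistic. Levels by library used log2 CPM with a prior count of 2. Lengths are merged exons of GENCODE M21 (GRCm38), and coordinates come from that annotation.

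Alternatives were RLE scaling, DESeq2 1.42.0, limma-voom (limma 3.58.1), no filter, a minimum count of 50, only the groups compared, leaving out each library and 2 pairs of libraries, a replicate block, and a prior count of 0.5. The fit was tested on simulated data. All members were named. Values in every library were given by a rule that covers the precursor, newly formed and lineage factor genes and 19 mature genes; Fa2h, Tspan2 and Ndrg1 were added after their values were seen. Other lineage genes were named by smallest p, except Tppp and Klk6, named as the ends of a range, and Rras2 and Bmp4. Markers were named from the 4 of highest level in a list or by a call. Pmp2, Six3 and Gfap were instead chosen after their values were seen. Single values that the rule asks for but that are withheld are not reported here. The members and lists were chosen with earlier results of these data known.

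Exons of 13 members overlap another annotated gene, on the same strand for Mobp, Trf and Pdgfra. A further check found over 5% of 50-base stretches of Ermn, Trf, Nkx6-2, Ndrg1, Qdpr, Cryab, Bcas1 and Olig1 elsewhere in the transcripts, so these counts are uncertain.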

Additional observations from a re-analysis of the deposited data

How the results depend on the processing

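The mature medians kept their sign under RLE scaling, DESeq2, limma-voom, both other filters, the fit of only the groups compared and the replicate block, and no member was called under any of these. For tau against control, genes called numbered 51 with DESeq2 (0 in the edgeR fit, where 2059 had an unadjusted p under 0.05), 0 to 98 when 1 library was left out, 130 without control 1 and tau 2, and 261 without control 2 and tau 2. Members called were 6 and 0 in those last 2 fits, and the mature median was 0.56 and -0.22, against 0.12 to 1.07 when 1 library was left out. For treated tau against tau, leaving out 1 library gave 355 to 840 genes called (779 with all), 0 to 3 members called and medians of -0.85 to 0.13. Leaving out control 1 and tau 2, or control 2 and tau 2, gave medians of 0.129 and 0.131. For treated tau against control, leaving out 1 library gave 494 to 816 genes called (873 with all), 0 to 1 members called and medians of -0.068 to 0.752. Without control 1 and tau 2 there were 17 members called and a median of 0.753, and without control 2 and tau 2 there were 1519 genes called. In the fit without control 2 and tau 2 the mature median was -0.069, with 8 of 25 positive. Each fit with 2 libraries left out holds 1 control and 1 tau library. The treated tau pair alone sets the spread there, so the numbers of genes and members called carry no conclusion. All fits with libraries left out hold fewer samples, and the cause of the other changes was not tested. The mature minus precursor difference stayed within 1 SD of its main value in each library under every alternative run. That SD (0.476) came from the same differences, and a change of scaling cancels within a library, so RLE scaling could hardly move them. With the other precursor genes added, the value changed sign in control 1 (0.106 to -0.091) and tau 1 (0.019 to -0.024). Replicate numbers in the sample titles, which differ from those in the count headers and were the only ones used here, did not pair the samples: the correlation of deviations between same-numbered libraries was 0.01 for control and tau, -0.008 for control and treated tau and 0.073 for tau and treated tau. With the replicate number as a block, 0 members were called in each comparison, 0, 709 and 796 genes were called, and the mature medians were 0.617, -0.417 and 0.199, in the order used above. With 2 mice in a group, differences of the size seen here were not separable from the spread between mice.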

Other observations

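Of the 9 tested other genes of newly formed or differentiating oligodendrocytes, 6 were highest in tau 2, as the mature genes were, and 3 were not, among them Rras2 and Bmp4. Rras2, a small GTPase, had 22.02 (control 1), 20.3 (control 2), 18.3 (tau 1), 17.8 (tau 2), 18.3 (treated tau 1) and 16.3 CPM (treated tau 2), with both controls above the other 4 libraries. Bmp4, a growth factor of committed precursors, had 1.81 (control 1), 1.65 (control 2), 1.68 (tau 1), 0.459 (tau 2), 2.13 (treated tau 1) and 1.57 CPM (treated tau 2), and was lowest in tau 2, where the mature genes were highest. That tau 2 level rests on 8 counts. Rras2 and Bmp4 were chosen after their values were seen, and neither was called in any comparison.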
